A study of Rattus rattus with 8 samples.

Results

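The genes described are 7 Toll-like receptors, the co-receptor Cd14 (NM_021744) and the adaptor Myd88 (NM_198130), which together are 9 of the 26997 different accessions or probe names on the array. The receptors are Tlr2 (NM_198769), Tlr3 (NM_198791), Tlr4 (NM_019178), Tlr5 (NM_001145828), Tlr6 (NM_207604), Tlr7 (NM_001097582) and Tlr9 (NM_198131). Each gene was found by the RefSeq accession that its probe carries, and all 9 had a probe. The genes were chosen from results of the comparison of blast with sham control rats on these same arrays, so their differences in that comparison are a description, and no p-value in it is read as evidence about them.

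Toll-like receptors are membrane proteins of innate immunity that recognize molecules of microbes and of damaged cells. Tlr2, Tlr4, Tlr5 and Tlr6 act at the cell surface and Tlr3, Tlr7 and Tlr9 in endosomes, and most of them signal through Myd88 to NF-kB and to MAP kinases. In skin, keratinocytes and resident immune cells carry several of these receptors.

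Whisker follicles were pulled from male adult Sprague-Dawley rats and pooled per rat, and the RNA of each rat was hybridized to 1 array. Under isoflurane, the heads of 5 rats had been exposed to a shock wave in a shock tube, at 145 kPa (M2 and M3), 175 kPa (H1) or 200 kPa (XH1 and XH3). The 3 sham control rats (C1, C2 and C3) are labelled 0 kPa. Rats of the study were sampled either a day or a week after exposure, and which of these applied to each rat was not known, so the blast rats may mix both. In bulk follicles fewer cells of a type and less RNA per cell cannot be told apart.

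Levels are log2 intensities after quantile normalization of the 8 arrays, and a gene is represented by its brightest probe. A probe was taken as well above background on an array when at least 50% of its spots were marked so by the scanner software. Tlr2, Cd14 and Myd88 were well above background on all 8 arrays. Tlr3 and Tlr6 were so on 7 arrays, M3 being the exception. Tlr4 was well above background in the 3 sham control rats and in 0 of 5 blast rats, and Tlr5 on the 2 arrays of C1 and XH1. Some of these calls rested on 1 of the 2 spots of the probe, for Tlr4 in C1 and C3, for Tlr5 in XH1 and for Tlr6 in XH3, so that C2 is the only rat with both Tlr4 spots well above background. Tlr7 and Tlr9 were well above background on 0 arrays. The 9 genes thus divide into 3 measured in every rat, 4 measured in some rats and 2 measured in none. Of the 160 spot measurements of these genes, 0 were saturated and 0 were marked as outliers.

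The array of M3 stood apart for these genes. M3 was the lowest of the 8 rats for Tlr2, Cd14 and Myd88, and the only rat in which Tlr3 and Tlr6 were not well above background. For Tlr4 and Tlr5 the values near background cannot be ranked. Among the 17472 probes well above background on all 8 arrays, M3 was the lowest rat for 29.8% and the highest for 23.4%. The next largest shares were 21.6% lowest in H1 and 19.1% highest in XH1. On the array of M3, 65.9% of the spots were well above background and the median processed signal was 93.3, against 66.5% and 90.9 for C2. The share in the other 6 rats was 68.8% to 73%. M3 also had the lowest median correlation with the other arrays, 0.9739 over the probes without missing values, against 0.9743 for H1 and 0.977 to 0.983 for the rest. The source of these low values was not tested, and the differences between blast and sham control, pooled, at 145 kPa and within the row of M3, are given both with M3 and without it.

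**Figure D1:**
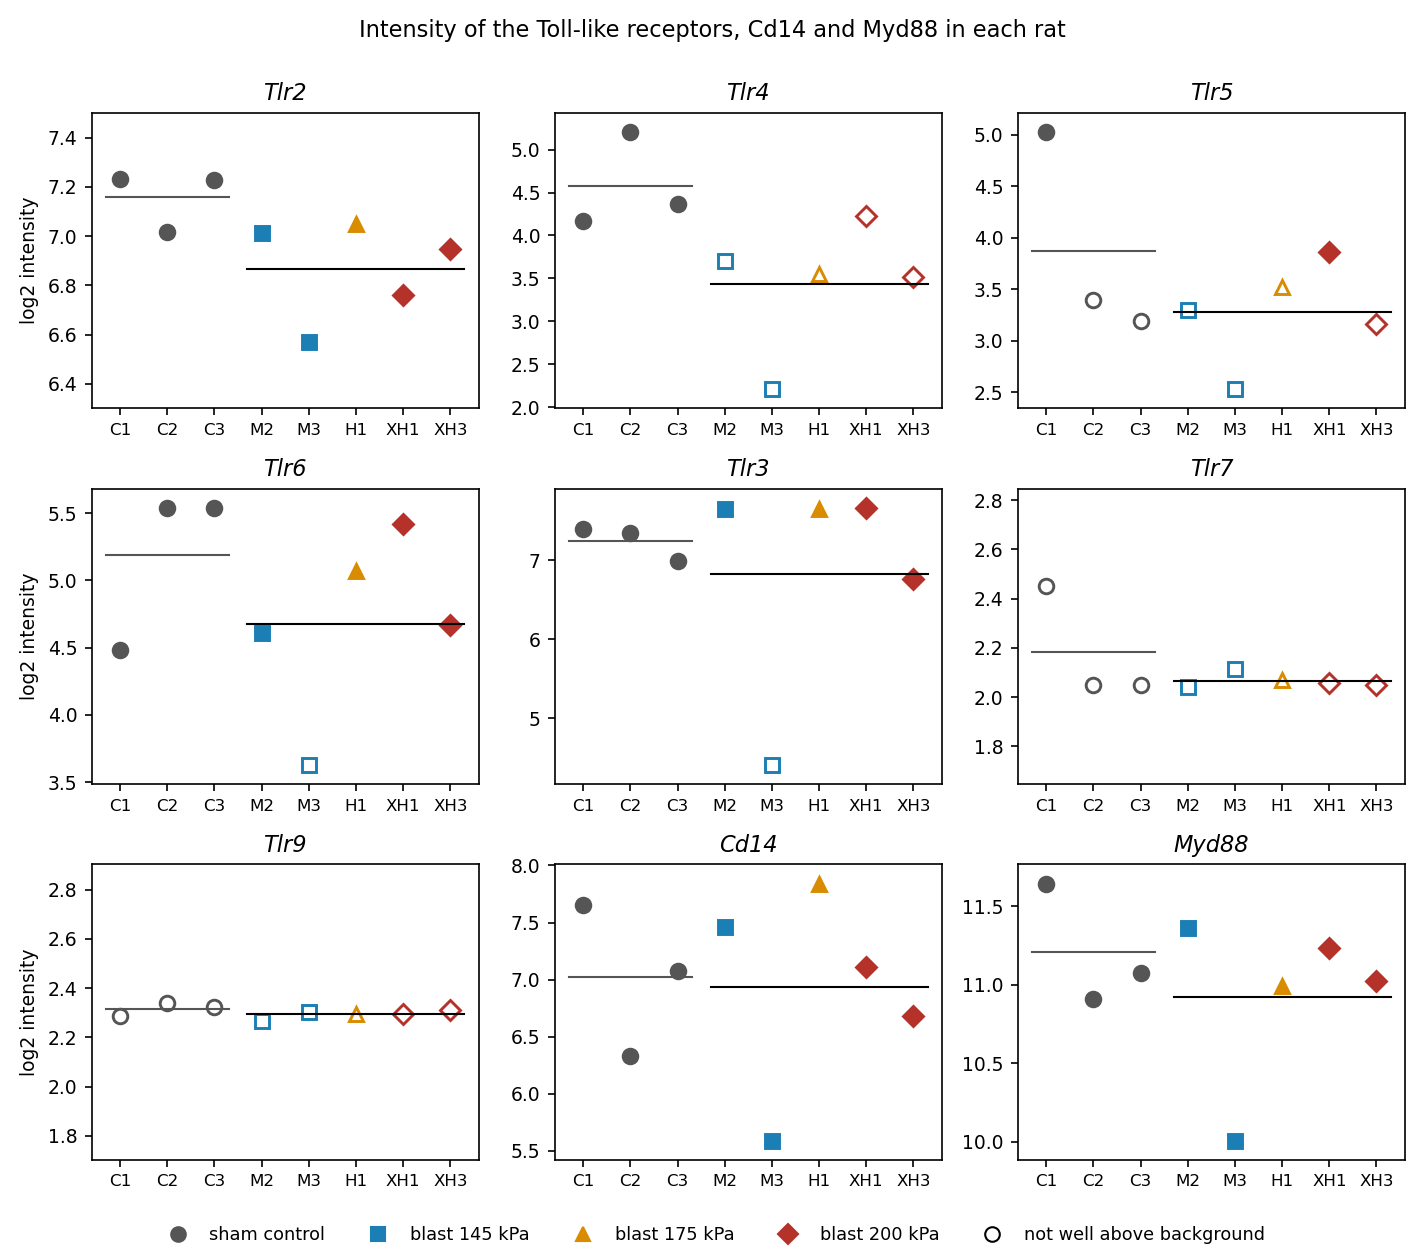
Log2 intensity of the brightest probe of each gene (y axis) in each rat (x axis), with lines at the mean of the sham control rats and of the blast rats. Open symbols are arrays on which the probe was not well above background, and M3 is the lowest rat in the panels of Tlr2, Tlr3, Tlr6, Cd14 and Myd88.

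Tlr2, which recognizes bacterial lipopeptides in pairs with Tlr1 or Tlr6, had log2 intensities of 7.23, 7.02 and 7.23 in C1, C2 and C3. In the blast rats M2, M3, H1, XH1 and XH3 it was at 7.01, 6.57, 7.05, 6.76 and 6.95. All blast rats except H1 lay below the lowest sham control rat, M2 only just, so that the groups overlapped by a single rat. The log2 fold change of blast over sham control was -0.29 (standard error 0.15), and -0.22 without M3. Over the 8 rats Tlr2 spanned 0.67 on the log2 scale, the narrowest range of the 7 genes measured in any rat.

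Tlr4, the receptor for lipopolysaccharide, was at 4.16, 5.20 and 4.37 in C1, C2 and C3. In M2, M3, H1, XH1 and XH3 the probe was not well above background, with measured values of 3.70, 2.21, 3.55, 4.23 and 3.51. The values of the blast rats are not ranked against those of the sham control rats. Because the blast values are near background, a bound was computed from the mean of the sham control rats and a limited value for each blast array. That value was the higher of the probe's own signal and the lowest signal of any probe well above background there. On every blast array the probe's own signal was the higher, so the bound equals the measured difference. Tlr4 was thus 2.20-fold higher in sham control rats, with measured means of 4.58 ± 0.55 (SD, n = 3) and 3.44 ± 0.74 (SD, n = 5). This fold makes no allowance for the spread between rats and is not read as a minimum. The fitted log2 difference of -1.14 (standard error 0.46) was -0.83 without M3 and -0.82 without C2.

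Tlr6, the partner of Tlr2 for diacylated lipopeptides, was at 4.48, 5.54 and 5.54 in C1, C2 and C3. In M2, M3, H1, XH1 and XH3 it was at 4.61, 3.63, 5.07, 5.42 and 4.67. C1 lay below every blast rat except M3, and C2 and C3 lay above all of them. The log2 fold change was -0.51 (standard error 0.44) and moved to -0.25 without M3 and to -0.86 without C1. Tlr5, the receptor for flagellin, was at 5.02 in C1 and 3.86 in XH1, the rats in which it was measured. In the other 6 rats its probe was not well above background, at values from 2.53 (M3) to 3.52 (H1). Its log2 difference of -0.60 (standard error 0.47) rested on C1, since it was -0.02 without that rat, and it was -0.41 without M3.

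Tlr3, which binds double-stranded RNA in endosomes and signals without Myd88, was at 7.39, 7.35 and 6.99 in C1, C2 and C3. In M2, M3, H1, XH1 and XH3 it was at 7.65, 4.41, 7.65, 7.67 and 6.76. M2, H1 and XH1 lay above all sham control rats and XH3 and M3 below them, M3 by far. The log2 fold change over all rats was -0.42 (standard error 0.76), and without M3 it was 0.19, in the other direction. The value of M3 minus the mean of the other blast rats was -3.02 on the log2 scale. Since the probe was not well above background in M3, the other blast rats were at least 8.12-fold higher, and M2, the other rat at the same pressure, at least 9.45-fold higher.

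The low Tlr3 value of M3 appeared on every Tlr3 spot of its array. Tlr3 had 2 probes with 2 spots each. Before normalization, the 4 spots gave signals from 12.2 to 20.1 in M3 and from 61.6 to 327.5 in the other 7 rats, and in M3 none of the 4 was well above background. The second probe followed the brighter one across the 8 rats (Pearson r = 0.98, as a description of probes for the same transcript). Its log2 fold change was -0.32 (standard error 0.69), and 0.19 without M3. By this probe M3 differed by -2.55 from the mean of the other blast rats, which were at least 5.87-fold higher, and M2 was at least 7.84-fold higher than M3. Tlr7 and Tlr9, endosomal receptors for single-stranded RNA and for unmethylated DNA, were not well above background in any rat, and no fold is given for them.

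**Figure D2:**
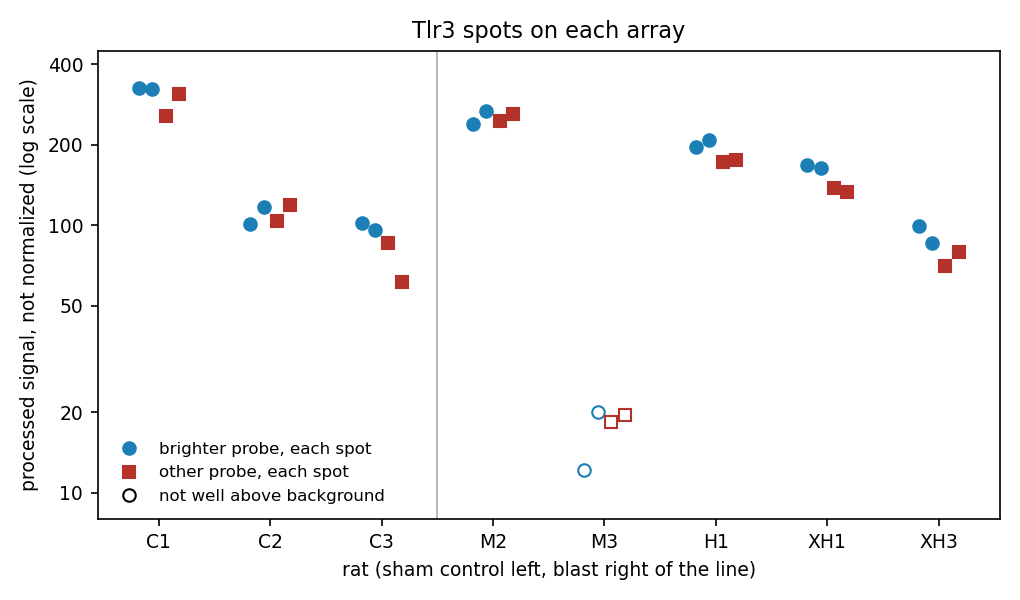
Processed signal of the 4 Tlr3 spots before normalization (y axis, log scale) on the array of each rat (x axis). In M3 the spots lie between 12.2 and 20.1 and are not well above background, while in the other 7 rats they lie at 61.6 or more.

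Cd14, which binds lipopolysaccharide and passes it to Tlr4, was at 7.65, 6.33 and 7.08 in C1, C2 and C3. In M2, M3, H1, XH1 and XH3 it was at 7.46, 5.59, 7.84, 7.11 and 6.68. The groups overlapped widely, with H1 above and M3 below all sham control rats. The log2 fold change was -0.08 (standard error 0.54) and became 0.25 without M3, and it ranged from -0.43 to 0.25 with each rat left out. It was also above 0 without C1 and with a block for the row or the side of the slide. Myd88, the adaptor shared by most of the receptors, was at 11.64, 10.91 and 11.08 in C1, C2 and C3. In M2, M3, H1, XH1 and XH3 it was at 11.36, 10.01, 10.99, 11.23 and 11.02. M3 was the only blast rat below the range of the sham control rats. The log2 fold change of -0.28 (standard error 0.33) was -0.06 without M3 and -0.07 without C1.

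The sizes of several of these differences depended on the processing. With normexp background correction, whose offset makes the differences of dim probes smaller, the log2 fold change was -0.28 for Tlr4, -0.14 for Tlr6, -0.13 for Tlr3, and -0.05 for Tlr5 and Cd14. With array quality weights it was -0.02 for Tlr3, -0.05 for Myd88 and -0.12 for Tlr5. A block for the row of the slide gave -0.15 for Tlr3, and one for the side gave -0.20 for Tlr3 and -0.13 for Myd88. Tlr2 stayed between -0.30 and -0.20 under all settings with all rats.

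**Figure D3:**
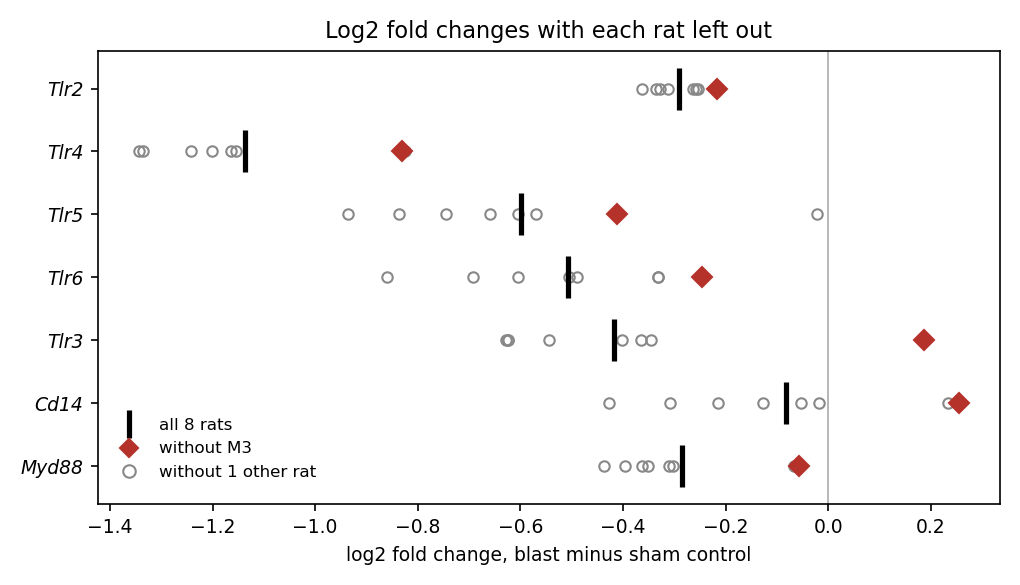
Log2 fold change of blast over sham control (x axis) for the 7 genes measured in at least 1 rat (y axis), with all 8 rats (bars), without M3 (diamonds) and without each other rat (circles). Without M3 the values of Tlr3 and Cd14 lie above 0, and those of Tlr2, Tlr4, Tlr5, Tlr6 and Myd88 lie nearer to 0 than with all rats.

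All 7 measured genes had a lower mean in blast rats, and 5 did without M3. Among all probes 49.0% had a lower mean in blast rats, and 50.86% of the probes well above background on at least 1 array did. Of the probes well above background on all 8 arrays, 51.35% had a lower mean in blast rats, and 46.89% did without M3. In limma, 0 of the 9 genes had an adjusted p under 0.05, as did 0% of the 30366 probes tested. At an unadjusted p under 0.05 the count was 1 of 9 (Tlr4), beside 1.62% of all probes lower in blast rats and 2.8% in either direction. In the methods' analysis of variance it was 0 of 9, beside 2.25% of all probes. The blast and sham control rats did not overlap for 0 of the 9 genes, against 2% of the probes that had values in all 8 rats. Since the genes were chosen from this contrast, nothing is read from any of these counts.

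At single pressures the differences from sham control were uneven, in comparisons that share the sham control rats. At 145 kPa all 7 measured genes were lower than in sham control, and the log2 differences were -1.62 for Tlr4, -1.21 for Tlr3, -1.07 for Tlr6, -0.96 for Tlr5, -0.52 for Myd88 and -0.49 for Cd14. Of the 2 rats at this pressure, M3 was the lower one for all 5 genes other than Tlr4 and Tlr5, which were not well above background in either rat. At the other pressures Tlr4 was not well above background in any rat, and Tlr5 only in XH1. The differences of these genes are therefore between measured values near background. Their exact sizes are not read, and the counts of 7 include them. M2 alone was below the sham control mean for 4 of the 7 genes, at -0.88 for Tlr4, -0.58 for Tlr6, -0.57 for Tlr5 and -0.15 for Tlr2. For Tlr3, Cd14 and Myd88 M2 lay above that mean, by 0.41, 0.44 and 0.16, so that at 145 kPa the direction of these genes rested on M3. At 200 kPa all 7 were lower, with differences of -0.71 for Tlr4, -0.14 for Tlr6, -0.08 for Myd88 and -0.03 for Tlr3. XH3 alone was below the sham control mean for all 7 genes and XH1 for 3 of 7. XH1 lay above that mean for Tlr3 (0.42), Tlr6 (0.24), Cd14 (0.09) and Myd88 (0.02), so that at 200 kPa the direction of these genes rested on XH3. The single rat at 175 kPa was lower for 5 of 7 genes and higher for Tlr3 (0.40) and Cd14 (0.82), and with 75th percentile scaling for 4 of 7. Of all probes, 50.9% were lower than in sham control at 145 kPa, 56.3% at 175 kPa and 47% at 200 kPa. Tlr2 differed by -0.37, -0.11 and -0.30 at 145, 175 and 200 kPa.

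A slope on pressure among the 5 blast rats does not use the sham control rats. The 5 genes measured in at least 4 of these rats, Tlr2, Tlr3, Tlr6, Cd14 and Myd88, had a positive slope, that is, higher levels at higher pressure, as did 54.5% of all probes. The largest of these were 0.22 log2 units per 10 kPa for Tlr3 (standard error 0.22) and 0.17 for Tlr6 (standard error 0.09). Tlr4 was not well above background in any blast rat and Tlr5 only in XH1, so no direction is read from their slopes. Without M3, which is 1 of the 2 rats at the lowest pressure, 1 of the 5 slopes was positive, that of Tlr6 at 0.074, beside 54.5% of all probes, while the slope was -0.09 for Tlr3, -0.12 for Cd14, -0.037 for Myd88 and -0.031 for Tlr2. In limma 0 of the 9 genes passed at an adjusted p under 0.05, as did 0% of the 30236 probes tested, and each gene had an adjusted p of 0.9999. At an unadjusted p under 0.05 there were 0 genes, beside 2.84% of the probes. With a block for the row of the slide there were 2, Tlr6 and Cd14, beside 5.83% of the probes, and still 0 at an adjusted p. The slopes with this block were 0.42 for Tlr3, 0.24 for Tlr6, 0.22 for Cd14, 0.14 for Myd88 and 0.045 for Tlr2. Without M2, which leaves M3 as the only rat at 145 kPa, there were also 2 at an unadjusted p, Tlr4 and Myd88, beside 15.7% of the probes. Nothing is read from the Tlr4 call, since its values in blast rats are near background. Two-sided exact permutation tests over the orders of the pressures gave p from 0.167 (Tlr6) to 0.867 (Tlr2). The 5 pressures have 30 distinct orders, which limits how small this p can be.

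Whether the genes varied together between rats was examined for Tlr2, Cd14 and Myd88, which were measured in every rat. The 3 pairs, and each gene with 8 genes named by the study's qPCR primer list, made 27 relations, of which 0 passed at an adjusted p under 0.05. With 75th percentile scaling 2 passed, those of Tlr2 with Stat5a and with Ahnak, and as residuals from the group means 9 passed, with M3 still among the rats. Both sets of genes were chosen from the blast comparison on these arrays. Over the 8 rats, r therefore contains the difference between the groups, and its p-values are a description. The residuals leave that difference out. Their permutation p treats the 8 residuals as interchangeable although group means were fitted, so it can be too small and is also a description. Myd88 and Cd14 had a Pearson r of 0.83 over the 8 rats (two-sided exact permutation p = 0.0113, adjusted 0.0509) and a Spearman rho of 0.64 (exact p = 0.0962, adjusted 0.236). C1 and M2 were high and M3 was low for both genes. Without C1 and M3, the rats farthest from the Myd88 median, r was 0.44, and without M3 alone it was 0.56, so that the relation rested in part on these rats.

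Tlr2 and Myd88 had an r of 0.73 (exact permutation p = 0.0428, adjusted 0.138) and a rho of 0.43 (exact p = 0.299, adjusted 0.539). For Tlr2 and Cd14 r was 0.68 (exact permutation p = 0.0633, adjusted 0.155) and rho 0.57 (exact p = 0.151, adjusted 0.34). Both relations rested on M3, since r was 0.28 and 0.29 without that rat, and 0.52 and 0.39 without M3 and XH1, the rats farthest from the Tlr2 median. With 3 and 5 rats a group is too small for a correlation of its own. After the means of the sham control and of the blast rats were taken off, r was 0.75 for Tlr2 and Myd88, 0.87 for Tlr2 and Cd14, and 0.86 for Myd88 and Cd14.

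Of the 8 genes of the primer list, Stat5a, Ahnak and Ska2 had the highest r with each of the 3 genes, though not all of these held without C1 and M3, the rats farthest from the medians of Stat5a, Ahnak and Ska2. Tlr2 had an r of 0.90 with Stat5a (exact permutation p = 0.00198, adjusted 0.0509; rho 0.90, exact p = 0.00456, adjusted 0.118), which was 0.67 without C1 and M3. With Ahnak it was 0.87 (exact permutation p = 0.00503, adjusted 0.0509; rho 0.81, exact p = 0.0218, adjusted 0.118), and 0.61 without the same rats. M3 had the lowest level of Stat5a and of Ahnak among the 8 rats, at 7.28 and 14.79. Myd88 and Cd14 were most like Ahnak, with r of 0.91 (exact permutation p = 0.00694, adjusted 0.0509; rho 0.69, exact p = 0.0694, adjusted 0.208) and 0.83 (exact permutation p = 0.0105, adjusted 0.0509; rho 0.81, exact p = 0.0218, adjusted 0.118). Without C1 and M3 these fell to 0.33 and 0.62. With Ska2, r was 0.77 for Tlr2 (exact permutation p = 0.0226, adjusted 0.0872; rho 0.71, exact p = 0.0576, adjusted 0.208) and 0.78 for Myd88 (exact permutation p = 0.0102, adjusted 0.0509; rho 0.83, exact p = 0.0154, adjusted 0.118). Without C1 and M3 these were 0.46 and 0.48. The remaining relations over the 8 rats rested on these rats. For Stat5a with Myd88 r was 0.72 (exact permutation p = 0.0461, adjusted 0.138; rho 0.38, exact p = 0.36, adjusted 0.607), and -0.55 without C1 and M3. For Stat5a with Cd14 it was 0.60 (exact permutation p = 0.112, adjusted 0.216; rho 0.43, exact p = 0.299, adjusted 0.539), and -0.18 without them. For Ska2 with Cd14 it was 0.61 (exact permutation p = 0.106, adjusted 0.216; rho 0.52, exact p = 0.197, adjusted 0.408), and 0.15 without them. As residuals from the group means, with C1 and M3 among the rats, these r were higher. They were 0.84 for Stat5a with Myd88 (permutation p = 0.0132, adjusted 0.0397) and 0.94 for Stat5a with Cd14 (permutation p = 0.000422, adjusted 0.0114). For Ska2 with Cd14 the residual r was 0.77 (permutation p = 0.026, adjusted 0.0701). Those of Tlr2 were lower than over the 8 rats, at 0.81 with Stat5a, 0.83 with Ahnak and 0.59 with Ska2 (permutation p = 0.123, adjusted 0.255). Residual r was 0.92 for Ahnak with Myd88, 0.93 for Ahnak with Cd14 and 0.81 for Ska2 with Myd88. The planned choice of Stat5a, Ahnak and Ska2 takes the highest r and leaves out negative relations. Those of Tlr2 with Arpc4, Pea15a and Triap1 are added after their values were seen, and that with Hbb is given below. For Tlr2 with Arpc4 r was -0.68 (exact permutation p = 0.0616, adjusted 0.155; rho -0.69, exact p = 0.0694, adjusted 0.208), and -0.80 without C2 and C3, the rats farthest from the Arpc4 median. For Tlr2 with Pea15a it was -0.55 (exact permutation p = 0.148, adjusted 0.266; rho -0.81, exact p = 0.0218, adjusted 0.118), and -0.83 without the same rats; Pea15a was not well above background in C2. As residuals from the group means these were -0.29 for Arpc4 and 0.028 for Pea15a. For Tlr2 with Triap1 r was -0.36 (exact permutation p = 0.391, adjusted 0.658), and -0.55 without C2 and M2, the rats farthest from the Triap1 median. Its rho was -0.64 (exact p = 0.0962, adjusted 0.236), and r as residuals was 0.36. The study picked the primer list from these arrays, and the 8 points share 1 slide and 1 normalization.

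Hbb, the beta chain of hemoglobin and a marker of blood, had no relation with these genes that passed the test. Its log2 intensity was 10.21, 13.96 and 11.64 in C1, C2 and C3, and 17.42, 13.34, 15.37, 13.31 and 14.43 in M2, M3, H1, XH1 and XH3. M2, H1 and XH3 lay above all sham control rats, and M3 and XH1 within their range, so that Hbb was higher on average in blast rats. M3 was near the middle of the 8 rats for Hbb. The r of Hbb was -0.27 with Tlr2 (exact permutation p = 0.517, adjusted 0.735), -0.11 with Myd88 (exact permutation p = 0.78, adjusted 0.878) and 0.07 with Cd14 (exact permutation p = 0.88, adjusted 0.95). Spearman rho was -0.31 (exact p = 0.462, adjusted 0.734), -0.26 (exact p = 0.536, adjusted 0.749) and 0.10 (exact p = 0.84, adjusted 0.907). Without C1 and M2, the rats farthest from the Hbb median, r was -0.13, 0.03 and 0.26. Without M3 it was -0.48 with Tlr2, -0.34 with Myd88 and 0.02 with Cd14. As residuals from the group means it was 0.32, 0.14 and 0.14.

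The 8 arrays lay in 2 rows of the slide, each with rats of both groups. For Tlr4 the difference was -1.06 within row 1 (C1 and C2 against M2 and H1) and -1.05 within row 2 (C3 against M3, XH1 and XH3). For Tlr2 it was -0.09 and -0.47, for Tlr6 -0.17 and -0.96, and for Tlr5 -0.80 and -0.01. For Myd88 it was -0.10 and -0.32. Tlr3 and Cd14 were higher in blast rats within row 1, by 0.28 and 0.66, and lower within row 2, at -0.71 and -0.62. M3 lies in row 2, which has a single sham control rat, C3. Without M3, the difference within row 2 was -0.49 for Tlr4 and for Tlr6, -0.37 for Tlr2 and -0.18 for Cd14. It was above 0 for Tlr3 (0.22) and Myd88 (0.05). For Tlr5 no direction is read within row 2, since its probe was well above background there only in XH1. Tlr4 was near background in all blast rats, and Tlr5 in all rats of row 1 but C1. The exact sizes of their differences within rows are therefore not read.

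Tlr2 is the only gene of the 9 for which the study lists qPCR primers, which are shown because they define the part of the transcript that the study set out to amplify. They are written 5′ to 3′ in lower case. The forward primer has 20 bases, 55% of them G or C, and the reverse primer has 21 bases, 47.6% of them G or C.
Tlr2 forward primer: tgagaatgatgtgggcgtgg
Tlr2 reverse primer: tcgctgtaggaaacaaaggca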

How the data were processed

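The authors obtained background-subtracted spot intensities from Agilent's Feature Extraction, whose version is 10.7.1.1 per the file headers and another in the study's methods. The deposited log2 values of the same arrays served as an alternative. Here, control spots and outlier spots were left out, spots of a probe were averaged as log2, the arrays were quantile normalized and floored at an intensity of 3, and log2 was taken. Blast was compared with sham control, and a slope on pressure fitted among blast rats, with limma 3.58.1 in R 4.3.3. The p-values were Benjamini-Hochberg adjusted over all probes tested, or over all 27 correlations, and the steps were tested on simulated data. The genes and lists were chosen with earlier results of these data known. Genes were named by the accessions given for them, and by the primer list, from which the 3 genes with the highest r to a member were named, and 1 gene of that list is not reported here. The sample labels name Rattus rattus, whereas the paper names Rattus norvegicus. In the Rattus rattus gene table used here 0 of the probes' accessions were found, so 49 other pathway genes and the markers of cell types, follicle keratinocytes included, were not analysed here. The small number of arrays limits the precision.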

Additional observations from a re-analysis of the deposited data

Results flagged for a closer look

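M3 was below the other blast rats for Tlr3 and for Myd88. Its gap to the next blast rat was 0.722 of the whole range of the 5 blast rats for Tlr3 and 0.725 for Myd88, both above Dixon's critical value of 0.71 for 5 samples. Tlr3 was not well above background in M3, so its gap is measured to a value near background. With other values, chosen after seeing the data, the gap for Tlr3 lay on either side of the critical value. It was under it at 0.697 with 75th percentile scaling, 0.543 with normexp, 0.599 on the second probe and 0.665 on the mean of both probes. It was above it at 0.722 with a floor of 8, 0.725 with outlier spots kept and 0.732 on the deposited values. For Myd88, which has 1 probe, it was 0.673 with normexp and 0.731 with 75th percentile scaling. With the floor of 8, with outlier spots kept and on the deposited values it was 0.725, 0.729 and 0.744. The 7 genes measured in at least 1 rat were examined in this way, and chance nominally flags about 1 in 20 groups. That rate does not apply here, since the genes share the same arrays and were chosen from the blast comparison, which includes M3. The flags are therefore a description. Of the probes well above background on at least 1 array, 9.18% had a blast rat as far apart, high or low, and 1.34% had M3 as far below the others. M3 was also the lowest blast rat for Tlr2 and Cd14, with gaps of 0.403 and 0.483 of the range. Tlr4 was not well above background in any blast rat and Tlr5 only in XH1, so no gap is read for them, and Tlr6 was not well above background in M3. Between M2 and M3, both at 145 kPa, Myd88 differed 2.56-fold and Cd14 3.67-fold.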

How the results depend on the processing

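The count of genes with a lower mean in blast rats, 7, was unchanged in 10 of 12 settings with all rats, counting 6 of 6 with the filter on dim probes, which drops Tlr5. It was 6 with a block for the row or the side of the slide, and 5 to 7 with 1 rat left out. No setting gave a gene at an adjusted p under 0.05 for blast or for pressure in limma or in the analysis of variance. The count at an unadjusted p under 0.05 for blast, 1, is no evidence, since the genes come from this contrast. It was 0 to 1 with a rat left out, 2 with array quality weights (Tlr2 and Tlr4, with 7.40% of all probes), and 0 with a block for the row or the side of the slide, in the methods' analysis of variance and with a replicate block from the title numbers. Across the 2 groups, the deviations of same-numbered rats from their group means had r from -0.575 to 0.5. For differently numbered rats r was from -0.656 to 0.597. With so few rats these values cannot show whether the numbers mark a block, and the main fits use none. For the trend, 2 genes passed unadjusted with the row as a block (Tlr6 and Cd14, with 5.83% of probes). With a rat left out 0 to 2 passed, 2 being without M2 (Tlr4 and Myd88, with 15.7% of probes). M3 is then the only rat at the lowest pressure. Nothing is read from this Tlr4 call, since its probe was not well above background in any blast rat. With sham control at 0 kPa added, which brings the blast contrast into the slope, all were negative: -0.0153 (Tlr2), -0.0116 (Tlr3), -0.0538 (Tlr4), -0.0272 (Tlr5), -0.019 (Tlr6), -0.0115 (Myd88) and -0.00069 (Cd14). With a blast rat left out, slopes ranged from -0.0314 to 0.0444 (Tlr2), -0.0854 to 0.468 (Tlr3), -0.037 to 0.194 (Myd88) and -0.12 to 0.20 (Cd14), each lowest without M3. Of the 3 correlated pairs, 2 passed as residuals from the group means, and of all 27 relations 9 did so and 2 with 75th percentile scaling, against 0. The passes as residuals rest on permutation p-values that can be too small. Apart from the slopes with sham control rats, the cause was not tested. Normexp on the mean signal of a spot was planned and not run. Normexp on the median signal, run in its place, and r without M3 were chosen after seeing the data. Low signal over background limits Tlr4, Tlr5, Tlr7 and Tlr9.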
